A study of Mus musculus with 11 samples.

Results

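The TNF superfamily ligands and their receptors were examined in sorted lung group 2 innate lymphoid cells (ILC2) and in thymic DN3 cells of mice. The members were the rows of the deposited gene table named Tnfsf or Tnfrsf with a number, together with Tnf, Lta, Ltb, Ltbr, Cd27, Cd70, Cd40, Cd40lg, Fas and Fasl. This gave 42 of 57186 entries, of which 17 are ligands, 24 are receptors and 1 is an antisense entry, Tnfsf13os. All mice were 14 days old, untreated and of the labelled genotype Cd3giCreRosa26stopZsGreen, in which a Cre named for Cd3g lets the green protein ZsGreen be made in cells that have used Cd3g and in their progeny. Bulk RNA sequencing covered thymic DN3 cells (n = 3), ZsGreen-positive lung ILC2 (n = 3) and ZsGreen-negative lung ILC2 (n = 5). DN3 cells are the T cell precursors that lack CD4 and CD8 and rearrange their T cell receptor beta genes, and lung ILC2 are tissue lymphocytes without an antigen receptor that make type 2 cytokines. The labels do not say whether the DN3 cells were sorted by ZsGreen or whether each library came from a separate animal, so p-values measure the spread between libraries, which may be technical.

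TNF superfamily ligands are mostly membrane-bound trimers, and some are also shed. Receptors with a death domain can start cell death through Fadd and caspases, whereas the co-stimulatory receptors recruit TRAF adaptors and switch on NF-kB, which in turn induces its own inhibitors. On ILC2, DR3 (the product of Tnfrsf25) is known as the receptor for the epithelial and myeloid ligand TL1A, and GITR (Tnfrsf18) and OX40 ligand (Tnfsf4) are known for exchanging signals with neighbouring cells. In the thymus, CD27 is known to rise as DN3 cells pass beta selection, and RANK and lymphotoxin signals shape the medullary epithelium.

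Total counts were 5951494 to 7745062 in the DN3 libraries, 5762491 to 17627469 in the ZsGreen-positive libraries and 4495260 to 14424313 in the ZsGreen-negative libraries. Levels are given as CPM, counts scaled to a common library size over all 11 libraries by TMM, in order of replicate number, and 1 count was worth 0.0595 to 0.243 CPM. Cd3g itself was 418, 432 and 409.6 CPM in the DN3 libraries, 168, 135 and 151 CPM in the ZsGreen-positive libraries and 38.7, 40.3, 29.6, 33.9 and 33.3 CPM in the ZsGreen-negative libraries. DN3 markers summed to 8275 to 8405 CPM in DN3, 1378 to 1591 CPM in ZsGreen-positive and 1431 to 1570.4 CPM in ZsGreen-negative libraries. Most of the lung sums came from Il2ra and Bcl11b, at means of 907 and 394 CPM over the lung libraries. Rag2 and Ptcra were at 0 counts in all lung libraries. Of 6 DN3 markers tested between the lung groups, 2 were higher in ZsGreen-positive cells and 0 lower. These were Cd3g and Cd3e, with log2 fold changes of 2.12 and 3.86 (edgeR BH-adjusted p = 9.76e-10 and 3.26e-08). ILC2 markers summed to 393 to 404, 11289 to 13544 and 11438 to 14267 CPM in those groups. Markers of lung structural cells summed to 227 to 257 CPM in DN3, 1206 to 2883 CPM in ZsGreen-positive and 502 to 1390.4 CPM in ZsGreen-negative libraries, with 10 of 32 at 0 in DN3. Of the 28 structural markers tested between the lung groups, 5 were higher in ZsGreen-positive cells and 0 were lower at a BH-adjusted edgeR p under 0.05. ZsGreen-positive libraries 1 and 2 and ZsGreen-negative libraries 1 to 4 carry a batch label of September 2024, and ZsGreen-positive library 3 and ZsGreen-negative library 5 one of April 2025. All DN3 libraries carry a label of October 2024, so batch cannot be told apart from tissue in the DN3 comparisons. In bulk samples, fewer cells of a type and less RNA per cell cannot be told apart either.

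Between the lung groups, Cd40lg, Tnfsf8 and Tnfrsf4 were higher in ZsGreen-positive than in ZsGreen-negative ILC2, and Tnfrsf18 was lower. CD40 ligand and CD30 ligand (Tnfsf8) are known as signals that activated helper T cells present, and OX40 (Tnfrsf4) and GITR are co-stimulatory receptors whose genes are neighbours. The filter on low counts left 29 of the 42 members for this comparison, 11 ligands and 18 receptors. At a Benjamini-Hochberg (BH) adjusted p under 0.05 in edgeR's quasi-likelihood test with a batch term, 3 were higher and 1 was lower, or 13.8% of those tested, while 4.52% of all 13771 genes tested were called. By direction, 2.35% of all genes were called higher and 2.18% lower. The remaining 25 members were not called, with log2 fold changes of -1.04 to 1.02. The median log2 fold change was -0.01 over the members tested and -0.000578 over all genes tested. Among ligands 2 of 11 were called higher and 0 lower, with a median of 0.08. Among receptors 1 of 18 was called higher and 1 lower, with a median of -0.19. The called ligands Cd40lg and Tnfsf8 passed the filter only through the ZsGreen-positive libraries, so that their direction was set by the filter. So did Ltbr, which was not called, while the uncalled Tnfrsf23 passed only through ZsGreen-negative libraries. The counts, shares and medians above include all of them.

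**Figure D1:**
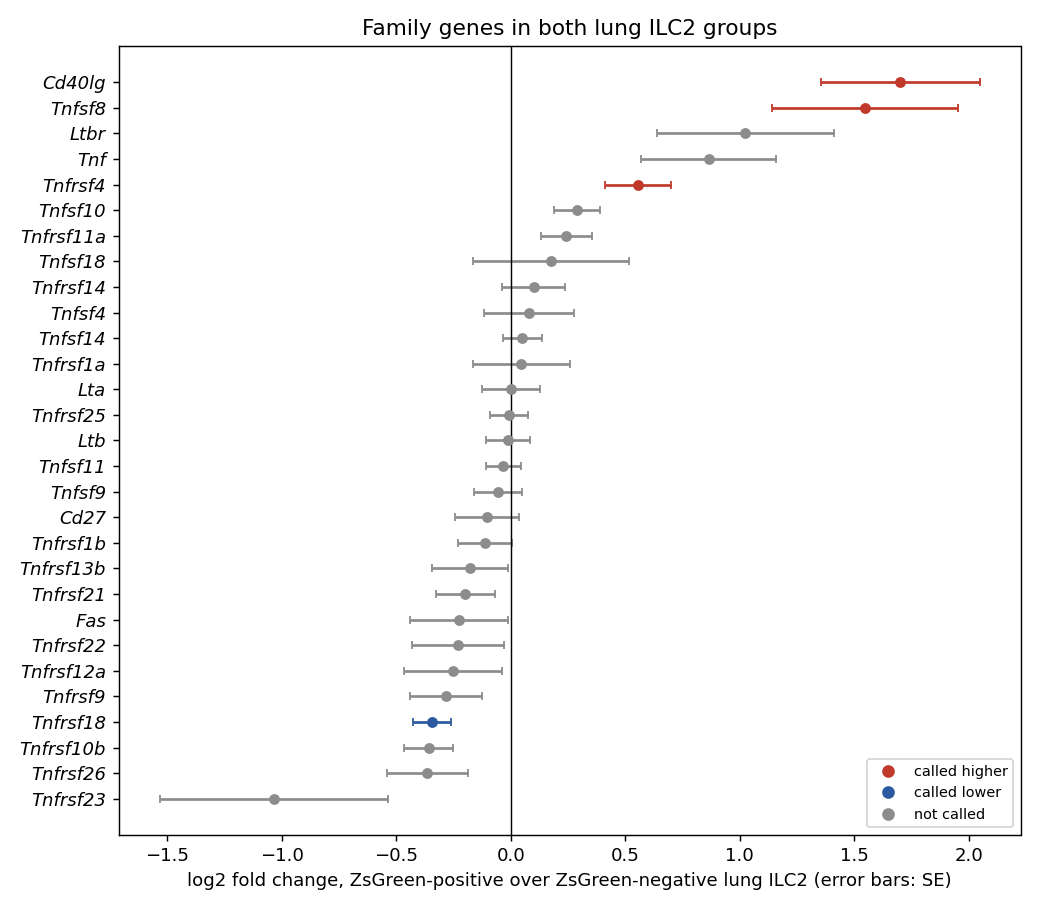
Log2 fold change of ZsGreen-positive over ZsGreen-negative lung ILC2 for the 29 family genes tested (horizontal axis, error bars are SE from edgeR, n = 3 and 5 libraries), with called genes in colour. Cd40lg and Tnfsf8 lie furthest to the right at 1.70 and 1.55, and Tnfrsf18 is called lower at -0.35 with a short error bar.

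Cd40lg (ENSMUSG00000031132) was 0.141, 0 and 0 CPM in the DN3 libraries, 3.18, 6.997 and 5.35 CPM in the ZsGreen-positive libraries and 1.89, 1.07, 1.21, 1.32 and 1.99 CPM in the ZsGreen-negative libraries. The 3 ZsGreen-positive libraries lay above all 5 ZsGreen-negative ones, and DN3 held 1 count in all. Means were 5.18 ± 1.92 CPM in ZsGreen-positive and 1.497 ± 0.415 CPM in ZsGreen-negative cells (SD, n = 3 and 5), a 3.25-fold difference in the fit. Cd40lg passed the filter of this comparison only through the ZsGreen-positive libraries. The log2 fold change was 1.70 ± 0.35 (SE; edgeR BH-adjusted p = 0.00671). Within the 2024 batch it was 1.85 (edgeR BH-adjusted p = 0.0326, n = 2 and 4), where 2.15% of all genes were called, 1.05% higher and 1.11% lower, and between the single 2025 libraries 1.43. Without ZsGreen-positive library 2 it was 1.30 and no longer called (edgeR BH-adjusted p = 0.0868). Its receptor gene Cd40, known from B cells and antigen-presenting cells, averaged 1.18 ± 0.775 CPM in ZsGreen-positive and 0.667 ± 0.875 CPM in ZsGreen-negative cells (SD) and was too low to test there. Markers of alpha-beta T cells summed to 379 to 481 CPM in ZsGreen-positive and 389 to 439.6 CPM in ZsGreen-negative libraries, with 0 of 6 called. That list leaves out the CD3 chain genes. Cd3e, a T cell gene listed with the DN3 markers, was 26.7, 18.6 and 23.1 CPM in the ZsGreen-positive libraries. In the ZsGreen-negative libraries it was 2.06, 1.78, 1.94, 0.660 and 1.54 CPM. Whether T cells among the sorted cells bear on Cd40lg was not tested.

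Tnfsf8 (ENSMUSG00000028362) was 2.11, 2.68 and 3.26 CPM in the DN3 libraries, 2.46, 6.26 and 7.07 CPM in the ZsGreen-positive libraries and 1.03, 0.892, 3.40, 1.65 and 1.91 CPM in the ZsGreen-negative libraries. ZsGreen-positive libraries 2 and 3 stood above every other library, while ZsGreen-positive library 1 lay within the ZsGreen-negative range, so the groups overlapped. Tnfsf8 also passed the filter of this comparison only through the ZsGreen-positive libraries. The log2 fold change of ZsGreen-positive over ZsGreen-negative was 1.55 ± 0.41 (SE; edgeR BH-adjusted p = 0.0358). Within the 2024 batch it was 1.36 (edgeR BH-adjusted p = 0.246). The call was lost without ZsGreen-positive library 2 or 3 (edgeR BH-adjusted p = 0.2501 and 0.254) and without ZsGreen-negative library 1, 2, 4 or 5 (0.0863, 0.0602, 0.0555 and 0.224). The CD30 receptor gene Tnfrsf8 was at 1.08 ± 0.180 CPM in ZsGreen-positive and 0.477 ± 0.453 CPM in ZsGreen-negative cells (SD), too low to test between these groups.

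Tnfrsf4 (ENSMUSG00000029075) was 3.37, 2.57 and 3.73 CPM in the DN3 libraries, 22.5, 23.4 and 16.3 CPM in the ZsGreen-positive libraries and 15.5, 18.6, 12.9, 16.7 and 10.6 CPM in the ZsGreen-negative libraries. ZsGreen-positive libraries 1 and 2 were the highest, and library 3 fell inside the ZsGreen-negative range. In each batch the ZsGreen-positive libraries were above the ZsGreen-negative ones. The log2 fold change was 0.56 ± 0.14 (SE; edgeR BH-adjusted p = 0.0332) and 0.52 within the 2024 batch (edgeR BH-adjusted p = 0.163). The call was lost without any 1 of the ZsGreen-positive libraries (edgeR BH-adjusted p = 0.0866, 0.132 and 0.170) and without ZsGreen-negative library 1, 3 or 5 (0.0718, 0.0576 and 0.162). It was also lost in the fit of all 11 libraries (0.143), and in 11 of 18 alternatives in all. Its ligand gene Tnfsf4 averaged 21.1 ± 12.8 CPM in ZsGreen-positive and 20.8 ± 6.54 CPM in ZsGreen-negative cells (SD) and was not called, with a log2 fold change of 0.08 ± 0.20 (SE; edgeR BH-adjusted p = 0.909).

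Tnfrsf18 (ENSMUSG00000041954) was 5.48, 5.25 and 5.47 CPM in the DN3 libraries, 104, 104 and 97.6 CPM in the ZsGreen-positive libraries and 133, 119.4, 143, 133 and 126 CPM in the ZsGreen-negative libraries. Every ZsGreen-positive library was below every ZsGreen-negative one, and the spread within the groups was small. Means were 102 ± 3.76 CPM in ZsGreen-positive and 131 ± 8.98 CPM in ZsGreen-negative cells (SD, n = 3 and 5). The log2 fold change was -0.35 ± 0.08 (SE; edgeR BH-adjusted p = 0.0202), and within the 2024 batch -0.34 (edgeR BH-adjusted p = 0.0972). The call was lost without any 1 of the ZsGreen-positive libraries (0.0777, 0.0733 and 0.0947; edgeR BH-adjusted p) and without ZsGreen-negative library 5 (0.105). The GITR ligand gene Tnfsf18 was at 3.68 ± 0.757 CPM in ZsGreen-positive and 3.07 ± 1.21 CPM in ZsGreen-negative cells (SD) and was not called (edgeR BH-adjusted p = 0.878).

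**Figure D2:**
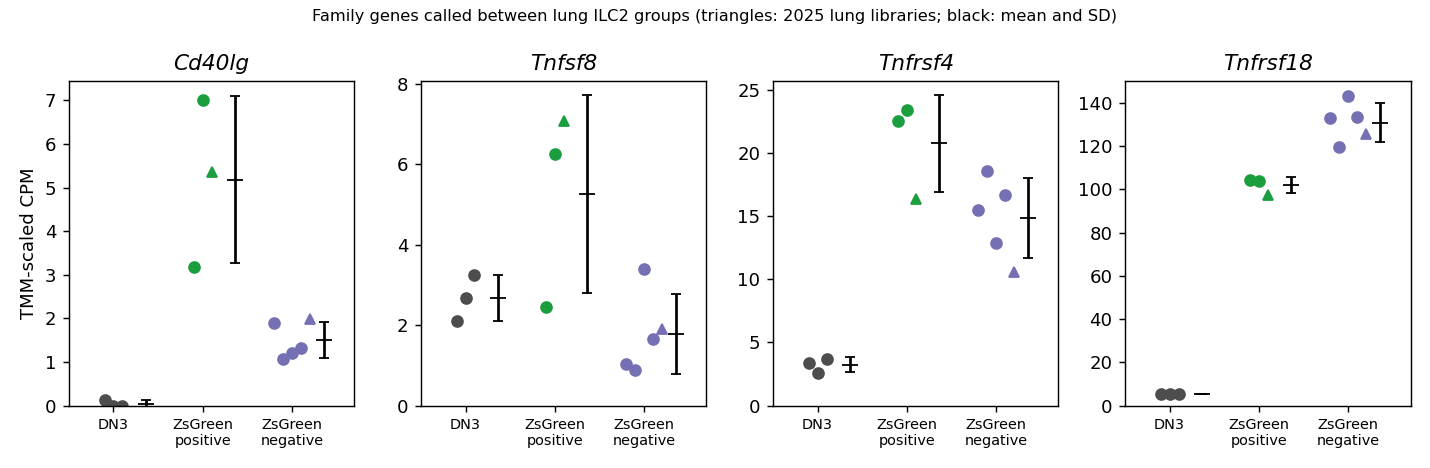
TMM-scaled CPM per library (vertical axis, linear, from 0) for the 4 family genes called between the lung groups; points are libraries, triangles the 2025 lung libraries, and black bars the mean and SD. The groups do not overlap for Cd40lg and Tnfrsf18, while 1 ZsGreen-positive library falls within the ZsGreen-negative range for Tnfsf8 and for Tnfrsf4.

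The structural marker sums, whose ranges overlapped between the lung groups, were highest in ZsGreen-positive libraries, and a score made from these markers was entered as a term of the fit. With it the log2 fold changes were 1.59 for Cd40lg, 0.49 for Tnfsf8, 0.75 for Tnfrsf4 and -0.43 for Tnfrsf18. The edgeR BH-adjusted p-values were then 0.497, 0.969, 0.311 and 0.255 in that order, and 0.487% of all genes were called in that fit, 0.138% higher and 0.349% lower. B cell markers summed to 17.05 to 43.9 CPM in ZsGreen-positive and 16.95 to 18.8 CPM in ZsGreen-negative libraries, with 1 of 4 called higher. Macrophage and dendritic cell markers summed to 116 to 255 CPM in ZsGreen-positive and 60.5 to 166 CPM in ZsGreen-negative libraries, with 0 of 8 called.

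Of the 29 members tested, the lung groups did not overlap for 4, 2 higher and 2 lower in ZsGreen-positive cells, against 10.2% of all genes tested, 5.17% higher and 5.01% lower. Besides Cd40lg and Tnfrsf18 these were Tnfrsf11a and Tnfrsf10b, neither of which was called. Tnfrsf10b, the gene of the mouse TRAIL death receptor, was 2.53, 5.25 and 4.07 CPM in DN3, 50.7, 51.2 and 53.0 CPM in ZsGreen-positive and 63.6, 55.7, 73.3, 76.0 and 64.5 CPM in ZsGreen-negative libraries. Its lung log2 fold change was -0.36 ± 0.11 (SE; edgeR BH-adjusted p = 0.0662), and it was called without ZsGreen-negative library 2 (0.0237) and with no filter on low counts (0.0229). Tnfrsf11a, which encodes RANK, was 0.281, 0.107 and 0.466 CPM in DN3, 79.7, 81.2 and 73.7 CPM in ZsGreen-positive and 72.4, 72.3, 59.0, 51.8 and 72.9 CPM in ZsGreen-negative libraries, with a lung log2 fold change of 0.24 ± 0.11 (SE; edgeR BH-adjusted p = 0.274).

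The ligand Tnf varied widely within each lung group. It was 2.67, 3.00 and 2.21 CPM in the DN3 libraries, 365, 221 and 704 CPM in the ZsGreen-positive libraries and 244, 168, 124, 119.2 and 375 CPM in the ZsGreen-negative libraries. The 2025 library was the highest of its group in both lung groups, and the groups overlapped. The log2 fold change was 0.86 ± 0.29 (SE; edgeR BH-adjusted p = 0.211). Without ZsGreen-negative library 1 it was 1.04 and called (edgeR BH-adjusted p = 0.0127). Tnfsf10, which encodes the death ligand TRAIL, had a log2 fold change of 0.29 ± 0.10 (SE) and Ltbr, the lymphotoxin beta receptor, one of 1.02 ± 0.39, and neither was called (edgeR BH-adjusted p = 0.123 and 0.159). Unadjusted edgeR p-values were under 0.05 for 9 members, the 4 called genes with Tnf, Ltbr, Tnfsf10, Tnfrsf10b and Tnfrsf11a. The share of all genes at that level was not counted, so this number says nothing about the family as a whole.

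DN3 cells held less RNA than lung ILC2 of 10 of the 11 ligands tested, and more of 5 receptors. In the fit of all 11 libraries, 31 members passed the filter. Some passed it only through the lung libraries, so that their direction was set by the filter. Among these were Tnfsf4, Tnfsf18 and Cd40 at 0 counts over DN3, Cd40lg at 1, Tnfrsf11a at 7, Lta at 8 and Tnfrsf25 at 14. Tnfsf9 at 23, Tnfrsf9 at 25, Tnfrsf12a at 29 and Fas at 37 were others. Tnfrsf23, at 21 and not called, also passed only through lung libraries. Tnfrsf8 passed only through DN3. The counts, shares and medians in this paragraph include all of them, so their lean towards lower in DN3 was partly set by the filter. The ligands that met the filter in DN3 as well were Ltb, Tnf, Tnfsf10, Tnfsf11 and Tnfsf14, all lower in DN3, and Tnfsf8, not called. Of the 31 members 5 were higher in DN3, 20 were lower and 6 were not called, or 80.6% called, while 78.8% of all 15132 genes tested were called. The share of calls in either direction was therefore near that of all genes, and by direction 36.7% of all genes were higher and 42.1% lower. Of the 11 ligands tested, 0 were higher, 10 were lower and 1 was not called. Of the 20 receptors tested, 5 were higher, 10 were lower and 5 were not called. The median log2 fold change was -2.86 over the members tested, -5.47 over ligands and -1.09 over receptors, against -0.09 over all genes. With the 3 tested members at 0 counts in DN3 set at their bound, the ligand median was -5.43 and the other medians were the same. Of the 31 members tested, 5 higher and 19 lower in DN3 showed no overlap between DN3 and lung libraries, against 69.3% of all genes, 32.6% higher and 36.7% lower.

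The lymphotoxin and TNF genes lie side by side on chromosome 17, and all 3 fell in DN3. Ltb, the lymphotoxin beta chain that anchors lymphotoxin alpha to the membrane, was 20.9, 19.8 and 18.6 CPM in the DN3 libraries, 347, 279 and 449.5 CPM in the ZsGreen-positive libraries and 346, 330.0, 335, 355 and 375 CPM in the ZsGreen-negative libraries. Its log2 fold change of DN3 over lung was -4.16 ± 0.14 (SE; edgeR BH-adjusted p = 5.12e-17). Lta, the soluble partner chain, was 0.281, 0 and 0.699 CPM in DN3, 22.0, 20.4 and 31.6 CPM in ZsGreen-positive and 20.6, 20.2, 24.3, 18.2 and 33.5 CPM in ZsGreen-negative libraries, a log2 fold change of -6.18 ± 0.43 (SE; edgeR BH-adjusted p = 1.1e-09). Tnf, with the values above, had a log2 fold change of -6.69 ± 0.77 (SE; edgeR BH-adjusted p = 4.03e-05). For each of the 3 genes the DN3 libraries lay below all lung libraries, and the lung groups overlapped. Lta passed the filter for DN3 against lung only through the lung libraries. Ltbr was at 2.87 ± 0.702 CPM in DN3 and 2.03 ± 0.911 CPM in lung cells (SD, n = 3 and 8). Against all lung cells it was not called, with a log2 fold change of 0.61 ± 0.31 (SE, edgeR BH-adjusted p = 0.0790). Without ZsGreen-positive library 3 the change was 0.79 and called (0.0297), and upper-quartile scaling also called it (0.0431). Against ZsGreen-negative cells alone Ltbr was called higher in DN3, at 0.99 ± 0.35 (SE, edgeR BH-adjusted p = 0.0145). Against ZsGreen-positive cells alone it was not called, at -0.04 ± 0.36 (0.927).

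A second chromosome 17 group holds Tnfsf9, Cd70 and Tnfsf14 in a row. Tnfsf14, which encodes LIGHT, a ligand of the lymphotoxin beta receptor and of HVEM, was 3.51, 2.68 and 2.79 CPM in the DN3 libraries, 209, 207 and 249 CPM in the ZsGreen-positive libraries and 217, 209, 212, 230.3 and 200.4 CPM in the ZsGreen-negative libraries. Tnfsf9, the CD137 ligand gene, was 1.41, 0.536 and 0.931 CPM in DN3, 35.7, 37.01 and 46.4 CPM in ZsGreen-positive and 43.2, 37.7, 39.1, 41.9 and 41.8 CPM in ZsGreen-negative libraries. Both were lower in every DN3 library than in every lung library, and the lung groups overlapped. Tnfsf9 passed the filter only through the lung libraries. The log2 fold changes of DN3 over lung were -6.19 ± 0.13 for Tnfsf14 and -5.43 ± 0.20 for Tnfsf9 (SE; edgeR BH-adjusted p = 1.1e-20 and 1.52e-16). Cd70, the ligand of CD27, had 0 counts in DN3 and averaged 1.30 ± 0.336 CPM in ZsGreen-positive and 0.842 ± 0.662 CPM in ZsGreen-negative cells (SD), below the filter; it was at least 9.08-fold lower in DN3, taking a floor of 3 counts over the group.

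RANK ligand, OX40 ligand and TRAIL also fell in DN3. Tnfsf11, which encodes RANK ligand, was 5.48, 7.18 and 8.50 CPM in the DN3 libraries, 196, 197 and 156 CPM in the ZsGreen-positive libraries and 205, 196, 213, 196 and 157 CPM in the ZsGreen-negative libraries. Its log2 fold change was -4.73 ± 0.15 (SE; edgeR BH-adjusted p = 1.86e-17), and no DN3 library reached the lung range. Tnfsf4 was 0, 0 and 0 CPM in DN3, 19.6, 34.6 and 9.16 CPM in ZsGreen-positive and 17.5, 21.8, 26.5, 26.9 and 11.3 CPM in ZsGreen-negative libraries. With 0 counts in all DN3 libraries it was at least 146-fold lower there (floor of 3 counts over the group; edgeR BH-adjusted p = 0.000320). Its neighbour Tnfsf18, the GITR ligand, was likewise at 0 counts in DN3 and at least 28.5-fold lower (edgeR BH-adjusted p = 6.14e-08). Tnfsf4 and Tnfsf18 passed the filter only through the lung libraries. Tnfsf10 was 31.6, 32.2 and 30.9 CPM in the DN3 libraries, 97.9, 91.1 and 77.2 CPM in the ZsGreen-positive libraries and 75.7, 88.2, 61.2, 74.8 and 68.6 CPM in the ZsGreen-negative libraries. Per kilobase of exon its DN3 level of 6.00 CPM was below only that of Ltb among the ligand genes, at 13.1 CPM. It had a log2 fold change of -1.32 ± 0.11 (SE; edgeR BH-adjusted p = 1.76e-10), with no overlap between DN3 and lung libraries.

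Cd40lg and Tnfsf8, the ligands called between the lung groups, differed in how they stood to DN3. With 1 count in DN3, the ratio of lung to DN3 levels of Cd40lg was 80.5 (95% counting interval 14.3 to 3196), and it was called lower in DN3 (edgeR BH-adjusted p = 3.52e-07). Cd40lg passed the filter for DN3 against lung only through the lung libraries. Tnfsf8 was the only ligand tested that was not called against all lung cells, with a log2 fold change of 0.03 ± 0.34 (SE; edgeR BH-adjusted p = 0.946). Against ZsGreen-positive cells alone it was lower in DN3 at -0.99 ± 0.40 (SE; edgeR BH-adjusted p = 0.0290). Against ZsGreen-negative cells alone it was not called, at 0.63 ± 0.40 (SE; edgeR BH-adjusted p = 0.156). These comparisons share the DN3 libraries.

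**Figure D3:**
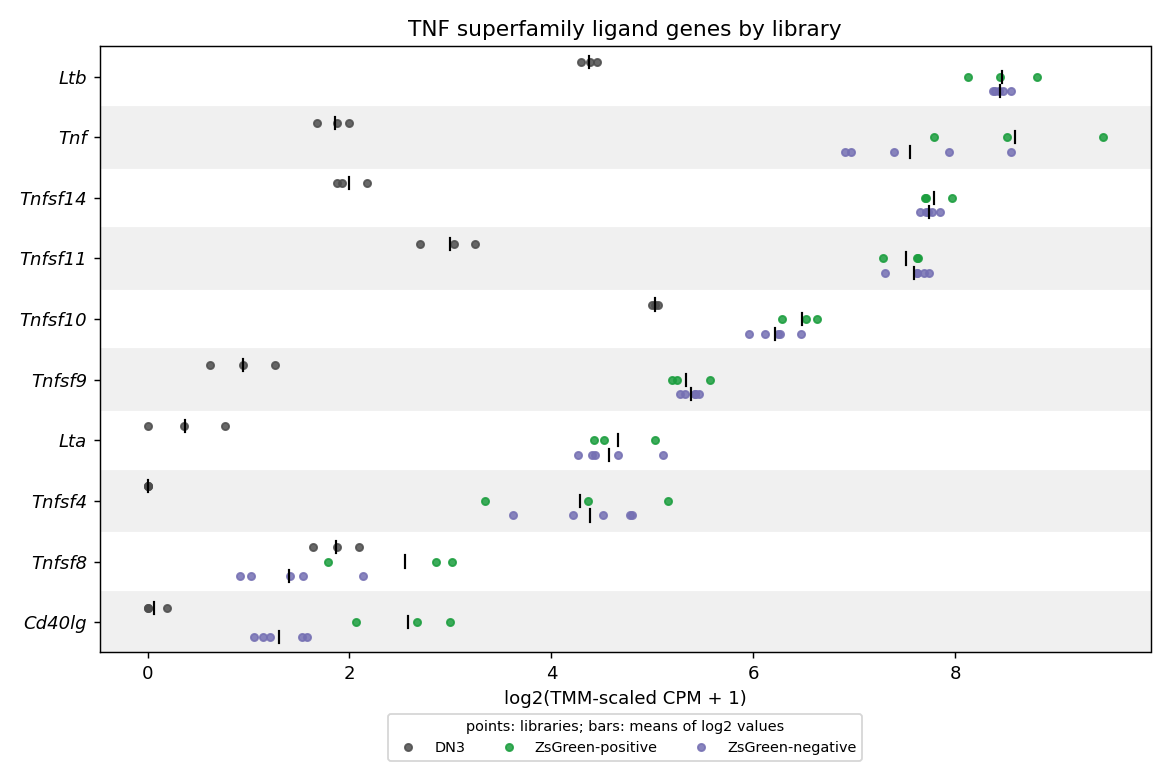
Level of the 10 ligand genes given by library (horizontal axis, log2 of TMM-scaled CPM plus 1), with 1 point per library and bars at the group means of the log2 values. DN3 points lie left of all lung points for every gene except Tnfsf8, and Tnfsf4 is at 0 in DN3.

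The receptor genes of DR3, RANK and GITR fell in DN3. Tnfrsf25, which encodes DR3, was 0.562, 0.643 and 0.466 CPM in the DN3 libraries, 194, 176 and 239.7 CPM in the ZsGreen-positive libraries and 185, 199, 197, 207 and 210.5 CPM in the ZsGreen-negative libraries. It had the largest change of the receptors tested, a log2 fold change of -8.45 ± 0.18 (SE; edgeR BH-adjusted p = 1.2e-20), and between the lung groups it was not called at -0.01 ± 0.08 (edgeR BH-adjusted p = 0.982). Its ligand gene Tnfsf15 (TL1A) had 0 counts in DN3 and averaged 1.21 ± 0.580 CPM in ZsGreen-positive and 0.600 ± 0.339 CPM in ZsGreen-negative cells (SD), below the filter. Tnfrsf11a had a log2 fold change of -7.89 ± 0.24 and Tnfrsf18 one of -4.46 ± 0.11 (SE; edgeR BH-adjusted p = 5.08e-18 and 1.15e-19). For these 3 receptor genes no DN3 library came near the lung range. Tnfrsf25 and Tnfrsf11a passed the filter only through the lung libraries, so their p-values add no support for the direction.

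The co-stimulatory receptor CD137, encoded by Tnfrsf9, was 0.984, 1.07 and 0.931 CPM in the DN3 libraries, 17.05, 15.1 and 15.3 CPM in the ZsGreen-positive libraries and 25.1, 17.7, 23.8, 17.7 and 16.3 CPM in the ZsGreen-negative libraries. Tnfrsf9 passed the filter for DN3 against lung only through the lung libraries. Its log2 fold change was -4.17 ± 0.23 (SE; edgeR BH-adjusted p = 2.78e-13). Tnfrsf4 had -2.37 ± 0.22 (SE; edgeR BH-adjusted p = 1.37e-09), and was called lower in DN3 than in ZsGreen-positive cells (-2.67 ± 0.24) and than in ZsGreen-negative cells (-2.19 ± 0.23). Tnfrsf1b, the gene of TNF receptor TNFR2, was 49.5, 44.0 and 43.4 CPM in the DN3 libraries, 128, 165 and 141 CPM in the ZsGreen-positive libraries and 153, 136, 182, 192 and 137 CPM in the ZsGreen-negative libraries. Per kilobase of exon it had, at 12.0 CPM, the highest DN3 level of the receptor genes that were lower there, and its log2 fold change was -1.75 ± 0.12 (SE; edgeR BH-adjusted p = 2.3e-11). Tnfrsf10b, with the values given above, fell by 3.90 on the log2 scale (edgeR BH-adjusted p = 1.04e-15). All 4 were below the lung range in all DN3 libraries.

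The 5 receptors that rose in DN3 were Tnfrsf8, Cd27, Tnfrsf13b, Tnfrsf1a and Tnfrsf21. Tnfrsf8, the CD30 gene, was 46.9, 51.6 and 54.3 CPM in the DN3 libraries, 1.01, 1.29 and 0.951 CPM in the ZsGreen-positive libraries and 0.172, 1.25, 0.486, 0.330 and 0.147 CPM in the ZsGreen-negative libraries. It passed the filter only through the DN3 libraries, and its log2 fold change was 6.43 ± 0.21 (SE; edgeR BH-adjusted p = 1.06e-17). Cd27, the co-stimulatory receptor for CD70, was 121, 127 and 121 CPM in the DN3 libraries, 25.1, 31.5 and 31.3 CPM in the ZsGreen-positive libraries and 34.9, 23.7, 36.4, 27.9 and 33.4 CPM in the ZsGreen-negative libraries. Its log2 fold change was 2.01 ± 0.10 (SE; edgeR BH-adjusted p = 2.03e-14), and its lung groups overlapped with a log2 fold change of -0.11 ± 0.14 (edgeR BH-adjusted p = 0.8003).

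Tnfrsf13b encodes TACI, best known as the receptor for BAFF and APRIL on B cells. It was 40.5, 35.7 and 42.6 CPM in the DN3 libraries, 11.4, 10.1 and 12.2 CPM in the ZsGreen-positive libraries and 11.9, 13.6, 11.9, 14.7 and 12.1 CPM in the ZsGreen-negative libraries, and its log2 fold change was 1.69 ± 0.11 (SE; edgeR BH-adjusted p = 3.13e-12). B cell markers summed to 20.4 to 23.6 CPM in DN3, 17.05 to 43.9 CPM in ZsGreen-positive and 16.95 to 18.8 CPM in ZsGreen-negative libraries, with Ms4a1, Pax5 and Fcmr at 0 counts in DN3. Most of the DN3 sum was Cd79b, at 21.0 ± 1.30 CPM (SD). The other BAFF receptor genes were scarce, since Tnfrsf13c had 2 counts over the DN3 libraries and Tnfrsf17 had 0 in all 11 libraries.

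Tnfrsf1a, the gene of the death domain receptor TNFR1, was 33.6, 30.7 and 31.7 CPM in the DN3 libraries, 11.1, 11.4 and 11.8 CPM in the ZsGreen-positive libraries and 9.46, 10.9, 12.4, 17.7 and 8.46 CPM in the ZsGreen-negative libraries. It rose in DN3 by 1.47 ± 0.15 on the log2 scale (SE; edgeR BH-adjusted p = 9.17e-09), the opposite direction to Tnfrsf1b. Tnfrsf21, the gene of death receptor DR6, was 28.1, 28.9 and 26.8 CPM in the DN3 libraries, 21.5, 18.0 and 19.1 CPM in the ZsGreen-positive libraries and 26.5, 22.7, 21.6, 23.0 and 20.8 CPM in the ZsGreen-negative libraries, with a smaller log2 fold change of 0.37 ± 0.11 (SE; edgeR BH-adjusted p = 0.00281). DN3 and lung libraries did not overlap for any of these 5 genes, although for Tnfrsf21 the lowest DN3 library was just above the highest lung library.

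Tnfrsf14, which encodes HVEM, was 23.2, 27.7 and 25.6 CPM in the DN3 libraries, 24.4, 26.5 and 28.7 CPM in the ZsGreen-positive libraries and 24.8, 24.1, 25.3, 32.2 and 21.0 CPM in the ZsGreen-negative libraries. Its log2 fold change of DN3 over lung was -0.01 ± 0.12 (SE; edgeR BH-adjusted p = 0.927), with all groups overlapping. Tnfrsf26 was 9.55, 8.14 and 10.6 CPM in DN3, 8.52, 9.57 and 8.56 CPM in ZsGreen-positive and 11.5, 12.1, 9.23, 12.9 and 11.3 CPM in ZsGreen-negative libraries, and was not called at -0.14 ± 0.15 (SE; edgeR BH-adjusted p = 0.402). It neighbours Tnfrsf22 and Tnfrsf23, genes of mouse decoy receptors for TRAIL, on chromosome 7. Both neighbours were not called in either comparison. How reads that fit more than 1 of these 3 genes were counted is not given in the sources used here, so their values may be uncertain.

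**Figure D4:**
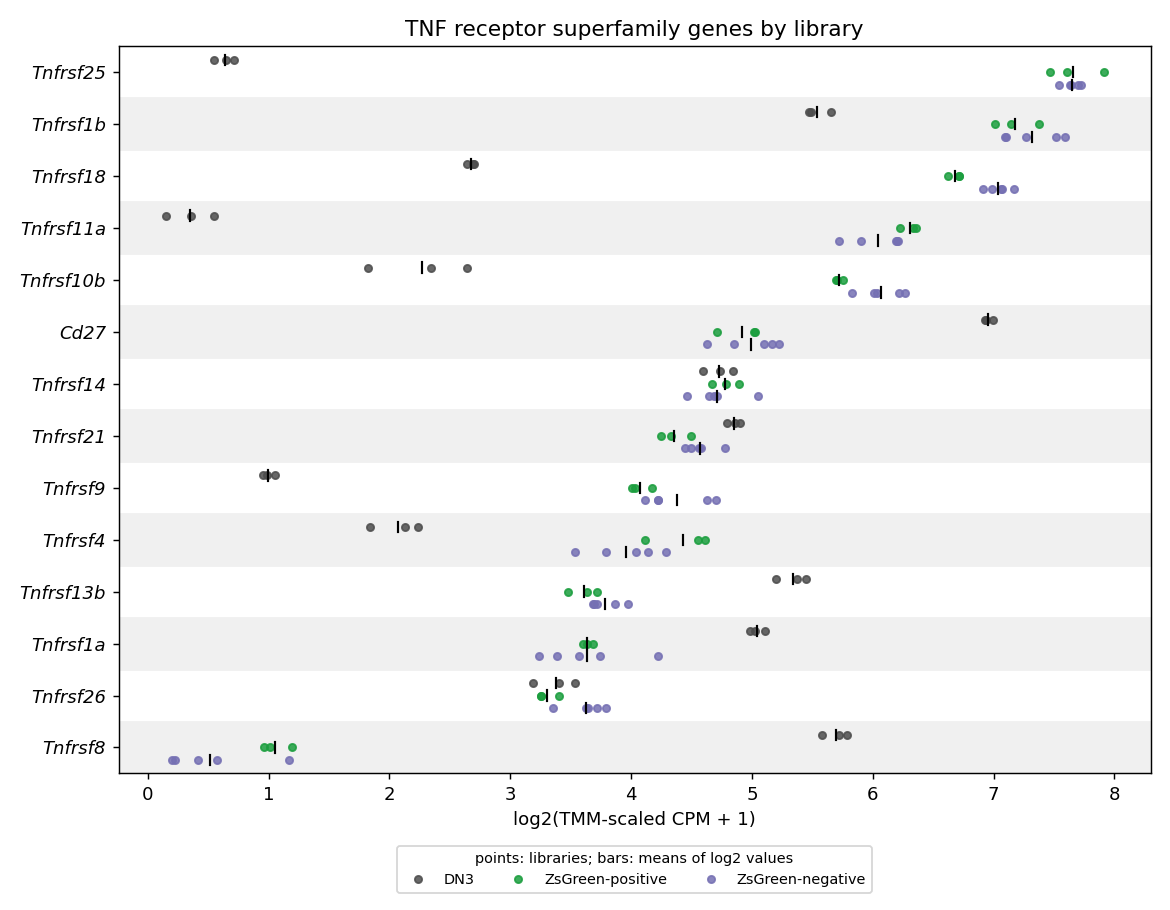
Level of the 14 receptor genes given by library (horizontal axis, log2 of TMM-scaled CPM plus 1), with 1 point per library and bars at the group means of the log2 values. DN3 points lie right of all lung points for Cd27, Tnfrsf21, Tnfrsf13b, Tnfrsf1a and Tnfrsf8, overlap them for Tnfrsf14 and Tnfrsf26, and lie left of them for the other 7 genes.

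Per kilobase of exon, which allows levels of different genes to be set side by side, the order was not the same in the 2 tissues. In DN3 the highest members were Cd27 at 52.8, Tnfrsf14 at 17.7, Tnfrsf8 at 14.7, Tnfrsf13b at 14.0 and Ltb at 13.1 CPM per kilobase, followed by Tnfrsf1a at 12.3 and Tnfrsf1b at 12.0. In lung cells the highest were Ltb at 232, Tnf at 177, Tnfsf14 at 117, Tnfrsf25 at 88.3, Tnfsf11 at 84.7 and Tnfrsf18 at 78.7 CPM per kilobase. So 4 of the top 5 in DN3 were receptors, whereas 4 of the top 5 in lung cells were ligands. The lung means of Tnf and Tnfrsf25 had SDs of 194 and 19.2 CPM over 8 libraries, and Tnf ranged over 119.2 to 704 CPM, so its place in that order was not firm. Exon lengths came from GENCODE M21 on GRCm38, another build than the one named for the counts.

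The 18 members with lower levels included 7 that passed the filter in at least 1 comparison. Fas, the receptor of Fas ligand, averaged 1.45 ± 0.300 CPM in DN3 and 8.40 ± 1.96 CPM in lung cells (SD) and fell by 2.48 on the log2 scale (edgeR BH-adjusted p = 2.46e-08). Tnfrsf12a, the TWEAK receptor gene, averaged 1.15 ± 0.151 CPM in DN3 and 8.54 ± 1.53 CPM in lung cells (SD) and fell by 2.86 (edgeR BH-adjusted p = 1.67e-09). Fas, Tnfrsf12a and Cd40 passed the filter for DN3 against lung only through the lung libraries. Fas and Tnfrsf12a were not called between the lung groups. Cd40 had 0 counts in DN3 and was at least 7.39-fold lower there (edgeR BH-adjusted p = 0.00416), although ZsGreen-negative library 4 was also at 0. The other 11, among them the ligand genes Fasl, Tnfsf12, Tnfsf13, Tnfsf13b and Tnfsf15, were tested in neither comparison, and their highest group mean was 1.40 CPM and highest library 2.06 CPM. Tnfsf12, Tnfsf13, the antisense entry Tnfsf13os and the joined entry Tnfsfm13 overlap on the genome, and since the sources do not say whether counting used the strand, their counts are uncertain.

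Neighbouring members did not always move alike. Tnfrsf4 and Tnfrsf18 are adjacent on chromosome 4 and were called in opposite directions between the lung groups, though both fell in DN3. Tnfrsf1b and Tnfrsf8 are also adjacent on chromosome 4 and were called in opposite directions between DN3 and lung. The promoters of the members were searched for the binding consensus of NF-kB, the factor that many of these receptors switch on. Of the 42 members, 31 had a promoter in the RefSeq table of GRCm38.p6, giving 35 windows of 300 bases from 250 bases before to 50 after a transcript start. The NF-kB (kappa B) consensus, searched by name on both strands, matched in 4 windows of 4 genes, 11.4% of the windows, against 8.46% of all 32851 windows. The windows with a match, shown so that the matched letters can be read in place, were those of Ltb, Tnfrsf25 and Tnfrsf9, which fell in DN3, and Tnfrsf8, which rose there. Each sequence reads 5′ to 3′ in the direction of the gene, with the matched letters in capitals.
Ltb promoter, chr17:35194257-35194556, plus strand: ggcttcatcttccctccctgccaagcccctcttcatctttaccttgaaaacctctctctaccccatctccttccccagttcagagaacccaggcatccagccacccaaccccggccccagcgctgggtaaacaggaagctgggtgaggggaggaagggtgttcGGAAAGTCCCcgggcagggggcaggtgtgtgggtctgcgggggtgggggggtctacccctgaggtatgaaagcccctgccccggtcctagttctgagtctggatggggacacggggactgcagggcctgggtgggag
Tnfrsf25 promoter, chr4:152116093-152116392, plus strand: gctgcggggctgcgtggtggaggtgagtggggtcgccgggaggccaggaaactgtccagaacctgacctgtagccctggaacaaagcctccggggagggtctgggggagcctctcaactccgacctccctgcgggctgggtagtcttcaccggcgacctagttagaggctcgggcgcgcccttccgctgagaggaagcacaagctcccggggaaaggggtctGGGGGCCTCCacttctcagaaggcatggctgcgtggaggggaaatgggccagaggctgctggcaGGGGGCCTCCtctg
Tnfrsf9 promoter, chr4:150927749-150928048, plus strand: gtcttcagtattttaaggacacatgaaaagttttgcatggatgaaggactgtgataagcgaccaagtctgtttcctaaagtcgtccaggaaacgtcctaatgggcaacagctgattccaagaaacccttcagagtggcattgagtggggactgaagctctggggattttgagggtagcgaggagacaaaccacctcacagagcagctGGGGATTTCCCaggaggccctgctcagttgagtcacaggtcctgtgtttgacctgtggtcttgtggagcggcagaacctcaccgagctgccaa
Tnfrsf8 promoter, chr4:145315115-145315414, minus strand: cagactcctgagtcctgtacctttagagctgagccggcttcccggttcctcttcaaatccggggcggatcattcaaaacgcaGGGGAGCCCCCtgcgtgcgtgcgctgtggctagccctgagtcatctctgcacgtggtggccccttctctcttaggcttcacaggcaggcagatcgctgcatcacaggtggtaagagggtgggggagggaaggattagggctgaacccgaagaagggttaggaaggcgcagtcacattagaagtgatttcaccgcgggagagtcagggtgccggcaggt

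The match lay at bases -87 to -78 from the start of Ltb, at -43 to -33 for Tnfrsf9 and at -168 to -158 for Tnfrsf8, and for these 2 genes it joins overlapping matches within 1 window. Tnfrsf25 had matches at -28 to -19 and at 37 to 46. Tnfrsf25 and Tnfrsf9 each had another window, at another start, without a match. The adjacent genes Tnfrsf4 and Tnfrsf18 held no match in their windows, shown in lower case for comparison.
Tnfrsf4 promoter, chr4:156013445-156013744, plus strand: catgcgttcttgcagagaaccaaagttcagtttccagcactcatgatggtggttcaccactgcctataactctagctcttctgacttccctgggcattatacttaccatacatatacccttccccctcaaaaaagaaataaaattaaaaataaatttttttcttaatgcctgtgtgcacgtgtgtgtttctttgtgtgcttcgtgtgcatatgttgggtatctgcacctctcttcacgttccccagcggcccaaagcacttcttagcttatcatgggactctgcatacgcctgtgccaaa
Tnfrsf18 promoter, chr4:156026072-156026371, plus strand: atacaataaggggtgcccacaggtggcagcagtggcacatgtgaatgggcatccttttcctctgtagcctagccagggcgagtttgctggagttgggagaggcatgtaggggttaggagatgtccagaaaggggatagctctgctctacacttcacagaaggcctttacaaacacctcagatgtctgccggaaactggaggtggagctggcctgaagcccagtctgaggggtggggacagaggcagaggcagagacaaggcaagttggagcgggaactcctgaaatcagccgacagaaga

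Most of the listed genes that act below these receptors were lower in DN3 as well. Of a list of 40 signalling genes, including TRAF adaptors, death domain proteins, linear ubiquitin ligase subunits, IkB kinases, NF-kB subunits and their inhibitors, 2 were higher in DN3, 33 were lower and 5 were not called, or 87.5% called, against 78.8% of all genes. By direction 82.5% of the list was lower and 5% higher, against 42.1% and 36.7% of all genes. The median log2 fold change of the list was -1.01, against -0.09 over all genes. The largest falls were in the feedback genes Nfkbia, which encodes the NF-kB inhibitor IkB alpha, and Tnfaip3, which encodes the ubiquitin-editing enzyme A20, and in the NF-kB subunit gene Relb.

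Nfkbia was 22.1, 18.7 and 20.02 CPM in the DN3 libraries, 2042, 1943 and 2375 CPM in the ZsGreen-positive libraries and 2375, 2079.6, 2332, 2258 and 2494 CPM in the ZsGreen-negative libraries, a log2 fold change of -6.79 ± 0.14 (SE; edgeR BH-adjusted p = 4.55e-21). Tnfaip3 was 66.5, 63.4 and 55.2 CPM in the DN3 libraries, 4484, 4243 and 4158 CPM in the ZsGreen-positive libraries and 4856, 4198, 4741, 4057 and 5099.6 CPM in the ZsGreen-negative libraries, with -6.18 ± 0.14 (SE; edgeR BH-adjusted p = 1.76e-20). Relb was 1.83, 1.93 and 3.14 CPM in the DN3 libraries, 122, 117 and 141 CPM in the ZsGreen-positive libraries and 126, 135, 120.2, 133 and 129 CPM in the ZsGreen-negative libraries, with -5.78 ± 0.14 (SE; edgeR BH-adjusted p = 1.54e-19). For each of the 3, all DN3 libraries were below all lung libraries, and none was called between the lung groups. Traf6, an adaptor with ubiquitin ligase activity, and Tab1, a partner of the kinase TAK1, were higher in DN3. Traf6 averaged 77.2 ± 4.48 CPM in DN3 and 46.5 ± 5.95 CPM in lung cells (SD), with a log2 fold change of 0.74 ± 0.09 (SE; edgeR BH-adjusted p = 8.09e-08). Tab1 averaged 53.2 ± 6.67 CPM in DN3 and 29.0 ± 4.30 CPM in lung cells (SD), with 0.87 ± 0.11 (SE; edgeR BH-adjusted p = 4.07e-07).

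Between the lung groups 1 of the 40 signalling genes was called higher and 0 lower, or 2.5% called, against 4.52% of all genes, so the share was not above that of all genes. The median log2 fold change of the list was -0.01, against -0.000578 over all genes. The called gene was Rnf31, the catalytic subunit of the linear ubiquitin ligase, which was 52.3, 47.7 and 49.9 CPM in the DN3 libraries, 76.7, 68.3 and 91.4 CPM in the ZsGreen-positive libraries and 65.0, 57.8, 58.5, 54.3 and 69.1 CPM in the ZsGreen-negative libraries. Its log2 fold change was 0.34 ± 0.09 (SE; edgeR BH-adjusted p = 0.0392), and the groups overlapped, since ZsGreen-positive library 2 was just below ZsGreen-negative library 5. Within the 2024 batch it was 0.31 and not called (edgeR BH-adjusted p = 0.204). The call was lost without any 1 of the ZsGreen-positive libraries (0.180, 0.0598 and 0.206; edgeR BH-adjusted p) and without ZsGreen-negative library 2, 3, 4 or 5 (0.0667, 0.0559, 0.0660 and 0.189).

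**Figure D5:**
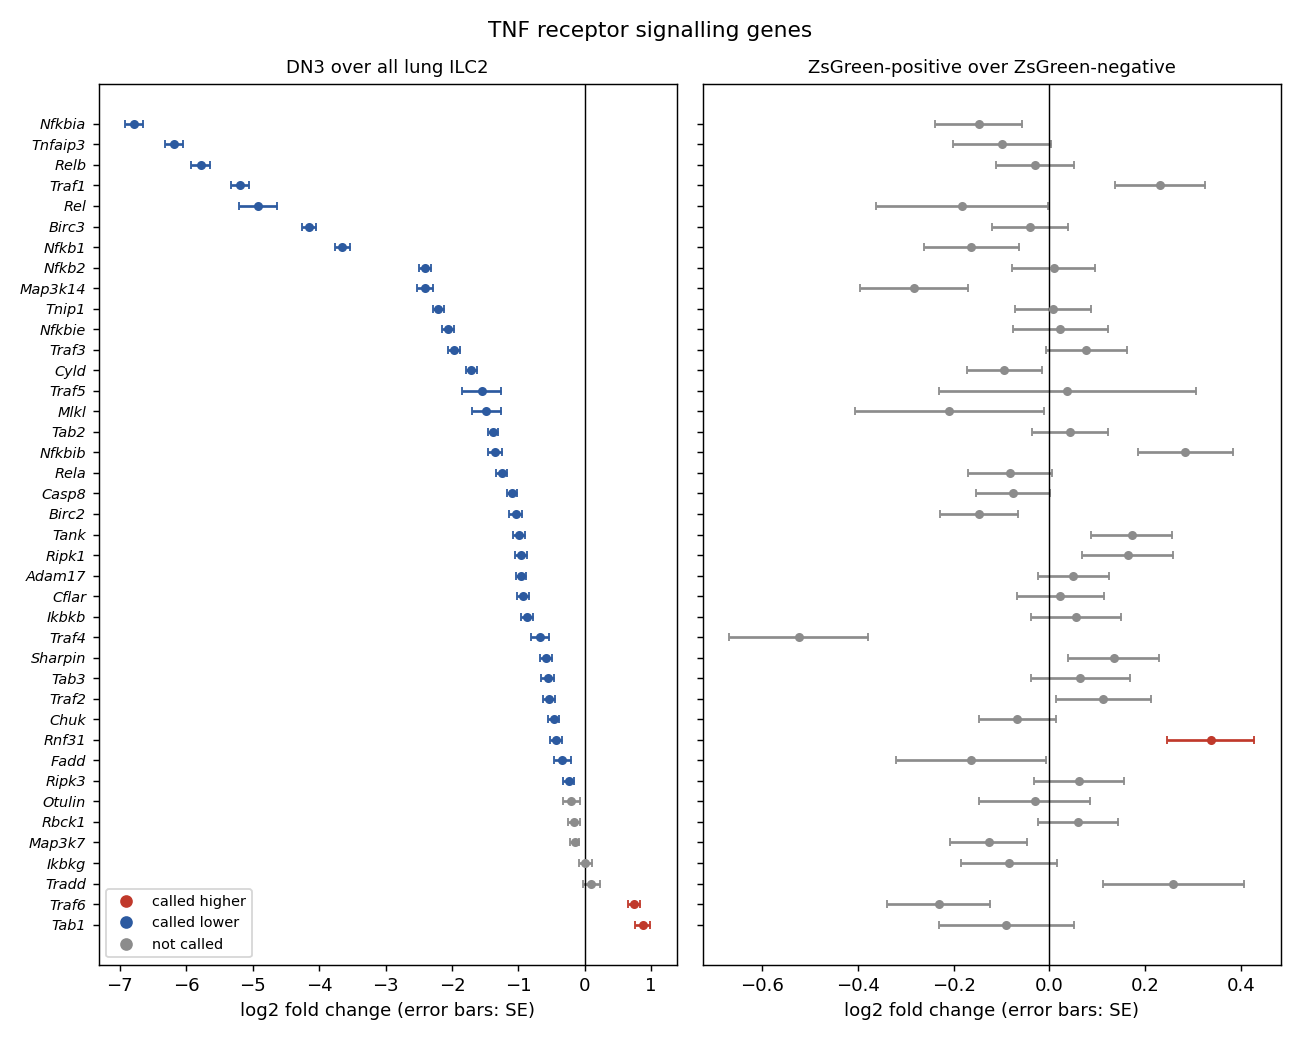
Log2 fold changes of the 40 signalling genes (horizontal axes, error bars are SE from edgeR), for DN3 over all lung ILC2 on the left and ZsGreen-positive over ZsGreen-negative on the right, with called genes in colour. On the left 33 genes are lower and 2 higher, down to -6.79 for Nfkbia, and on the right only Rnf31 is called, at 0.34.

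Of 5 genes of the same receptor and ligand families whose names lie outside the selection, Relt, an orphan receptor gene, averaged 20.9 ± 0.485 CPM in DN3 and 12.8 ± 1.38 CPM in lung cells (SD), a log2 fold change of 0.71 ± 0.12 (SE; edgeR BH-adjusted p = 1.83e-05). Ngfr, the gene of the low-affinity neurotrophin receptor, averaged 2.28 ± 0.891 CPM in DN3 and 0.133 ± 0.184 CPM in lung cells (SD), with 3.96 ± 0.61 (SE; edgeR BH-adjusted p = 3.85e-06). Ngfr passed the filter only through the DN3 libraries, where it was high. Eda, Edar and Eda2r had 2, 4 and 0 counts over all 11 libraries, too few to test.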

How the data were processed

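Bulk RNA was sequenced from sorted cells of 14-day-old mice, with a PicoPure RNA kit and a Watchmaker mRNA library kit per the labels' protocols. The values are whole-number counts per gene as deposited by the authors. The submitters' processing notes name GRCm39 and DESeq2; which aligner, counter, annotation and strand setting were used is not given in the sources used here. A second deposited table, of the 8 lung libraries, held the same counts and was not used.

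Libraries were grouped by the labels. Counts were tested with edgeR 4.0.16 (R 4.3.3) by quasi-likelihood with TMM scaling and filterByExpr at a minimum count of 10, and p-values were adjusted over all genes tested (BH, threshold 0.05). The lung comparison used 8 libraries with batch as a term. For DN3 against lung, all 11 libraries were fitted with no batch term and the lung groups were weighted by their number of libraries. The SE was taken from the log2 fold change and the F statistic. Alternatives were RLE and upper-quartile scaling, no filter, DESeq2 1.42.0, limma 3.58.1 voom, a replicate block, no batch term, the 2024 batch alone, a fit of all libraries, a structural marker score as a term, equal weights, and each library left out. The scripts were tested on simulated data. Replicates differed beyond sampling noise, with 1.72 to 13.4 chi-square units per degree of freedom over 16 pairs. Counting intervals cover counting error only.

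Library values are given for members called between the lung groups or with a mean of at least 10 CPM in a group, and for signalling genes called between the lung groups or, of those at 10 CPM or more in the higher group, among the 3 largest changes in each direction in DN3. The members and lists were chosen with earlier results of these data known.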

Additional observations from a re-analysis of the deposited data

How the results depend on the processing

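In DN3 against lung, family counts stayed within 5 to 6 higher and 19 to 25 lower and signalling counts within 2 higher and 31 to 34 lower. The lung calls were less stable. The family had 3 genes higher and 1 lower; it had 0 and 0 with the structural score, 1 and 0 in the 2024 batch, 3 and 2 with no filter, and 0 to 2 in each direction when libraries were left out. The signalling list had 1 higher and 0 lower; no gene was called higher with no batch term, in the 2024 batch or with the structural score, 1 was called lower with no filter, in DESeq2 and in the fit of all 11 libraries, and leaving out libraries gave 0 to 1 in each direction. Of all genes, 323 were higher and 300 lower; the counts were 621 and 460 with no filter, 145 and 153 in the 2024 batch, 19 and 48 with the structural score, and 146 to 471 and 140 to 343 with libraries left out. The causes were not tested.

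Replicate numbers did not pair the samples: deviations of same-numbered ZsGreen-positive and ZsGreen-negative libraries correlated at 0.0782, -0.138 and -0.0485, and 0 of 3 ZsGreen-positive libraries correlated best with their own number. With a replicate block in place of batch, 0 family genes were higher and 0 lower, 0 signalling genes were higher, and of all genes 130 were higher and 103 lower. Directions turned with the block only for uncalled genes, at 0.0701 for Ltb, 0.00372 for Relb, 0.0288 for Tnfrsf22, 0.0645 for Tnfrsf25 and -0.21 for Tnfsf4 between the lung groups and 0.00594 for Tnfrsf14 and 0.0588 for Tnfrsf22 in DN3 against lung.

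Other directions that turned all belonged to genes not called in that comparison. Between the lung groups the log2 fold changes were then -0.00185 for Lta with RLE scaling, -0.00540 for Lta with no filter, -0.00178 for Lta in DESeq2. They were -0.00946 for Lta and -0.000520 for Tnfsf18 in limma voom, 0.0488 for Ltb, -0.0122 for Tnfrsf1a, 0.0321 for Tnfrsf25 and -0.00631 for Tnfsf4 with no batch term, -0.0639 for Tnfrsf14, -0.16 for Tnfrsf1a and -0.0570 for Tnfsf14 in the 2024 batch. They were 0.0455 for Ltb, -0.00654 for Tnfrsf1a, 0.0290 for Tnfrsf25 and -0.0106 for Tnfsf4 in the fit of all 11 libraries, 0.14 for Fas, -0.15 for Lta, 0.10 for Tnfrsf22 and -0.00702 for Tnfsf14 with the structural score. With libraries left out, the ranges were -0.0466 to 0.0457 for Lta, -0.12 to 0.11 for Ltb, -0.0992 to 0.00793 for Relb, -0.26 to 0.000926 for Tab1, -0.0633 to 0.19 for Tnfrsf14, -0.16 to 0.20 for Tnfrsf1a, -0.21 to 0.0154 for Tnfrsf1b, -0.0879 to 0.0562 for Tnfrsf25, -0.0565 to 0.0895 for Tnfsf14, -0.0390 to 0.60 for Tnfsf18 and -0.27 to 0.26 for Tnfsf4. In DN3 against lung they were 0.0145 for Tnfrsf14 with RLE scaling, 0.0897 for Tnfrsf14 and 0.0450 for Tnfrsf22 with upper-quartile scaling, -0.00964 for Tnfsf8 with no filter, 0.0144 for Tnfrsf14 in DESeq2, 0.00871 for Tnfrsf14 in limma voom, -0.18 for Tnfsf8 with the lung groups weighted equally, and with libraries left out -0.0769 to 0.0512 for Tnfrsf14, -0.13 to 0.0450 for Tnfrsf22 and -0.15 to 0.29 for Tnfsf8.

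Upper-quartile scaling moved the median log2 fold change of all genes in DN3 against lung to 0.01, where TMM gave -0.09. With 1 count worth up to 0.243 CPM, 11 members were too low to test in either comparison.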
